A study of Mus musculus with 6 samples.

Results

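Disease-associated microglia switch on a recurring set of genes, and 10 of them were taken here by symbol: Apoe, Trem2, Tyrobp, Lpl, Cst7, Spp1, Fabp5, Itgax, Clec7a and Cd9. Of these, 9 matched a row among the 31053 genes of the count matrices. Clec7a matched no row and was not analysed here. The question was which parts of this programme had started within 3 h of reperfusion after a transient stroke.

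The cells came from brains of C57BL/6 mice in which the middle cerebral artery had been blocked by a filament for 60 min and then reopened. They were taken 1 h or 3 h after reperfusion or from naive mice (named naive on the samples and 0 h in the design text), perfused, and sorted as propidium iodide-negative CD45+ cells. All mice carried the floxed Cd300a alleles (Cd300a-fl/fl, written fl/fl), and the second genotype also carried Lyz2-cre, which drives Cre from the lysozyme gene in myeloid cells and deletes Cd300a there (written Lyz2-cre). Each of the 6 combinations of 2 genotypes and 3 times was 1 library made from 3 pooled brains, so each time rests on 2 libraries of different genotype and each genotype on 3. Ages were not given in the sources used here, nor whether the unblocked hemisphere was included.

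TREM2 is a surface receptor of microglia that binds lipids, lipoproteins and debris and signals through the adaptor TYROBP (DAP12). In models of amyloid disease and demyelination the programme is described in stages: an early stage that does not need TREM2 and includes Apoe and Tyrobp, and a late stage that needs it and adds genes of lipid handling, lysosome and adhesion such as Lpl, Cst7, Itgax, Spp1 and Cd9. Homeostatic microglial genes fall at the same time.

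Cells were assigned to classes by clustering that left out 41 programme genes, so that no class was defined by the members or by the early-stage and late-stage genes. Genes of the other lists described below stayed in unless they were among the 41. Of the 16 homeostatic genes, 12 are the markers that named the microglia-like class. Total counts of unique molecular identifiers (UMIs) ran from 35479437 to 48478866 per library, and 47077 cells were kept. Microglia-like cells numbered 5558 (fl/fl) and 5714 (Lyz2-cre) for naive mice, 6873 and 7020 for 1 h, and 4741 and 7313 for 3 h, between 70.1% and 87.6% of a library. None of the 12 microglia markers was at 0 in these cells, and their summed level was 31681 and 33012 CPM (UMIs scaled to the same total in every library) for naive mice, 35517 and 39356 for 1 h, and 20419 and 23777 for 3 h. Summed monocyte markers stayed between 10.8 and 33.3 CPM, with the highest values in the 3 h libraries, and summed border macrophage markers stood at 154 and 194 CPM in naive libraries and between 260 and 282 CPM later, nearly all of it Stab1. The part of these other cells in the results below was not tested.

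The members with an entry in the promoter table (RefSeq, build GRCm38.p6) numbered 7, and 3 promoters are shown because their genes carry the opposite movements described below: Spp1 and Cd9, whose levels were highest at 3 h, and Trem2, whose level was lowest then. Each is the stretch of 250 bases before the annotated start, 5′ to 3′, with the capitals marking a match to GAGGAAG (the core of a PU.1 site) or TGANTCA (an AP-1 site) on either strand.
Spp1, chr5:104434861-104435110, plus strand: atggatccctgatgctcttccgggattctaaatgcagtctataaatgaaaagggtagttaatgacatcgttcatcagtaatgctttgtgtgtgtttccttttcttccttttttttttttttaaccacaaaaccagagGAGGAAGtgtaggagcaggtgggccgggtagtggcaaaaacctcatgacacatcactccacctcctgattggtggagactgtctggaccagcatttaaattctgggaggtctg
Cd9, chr6:125494761-125495010, minus strand: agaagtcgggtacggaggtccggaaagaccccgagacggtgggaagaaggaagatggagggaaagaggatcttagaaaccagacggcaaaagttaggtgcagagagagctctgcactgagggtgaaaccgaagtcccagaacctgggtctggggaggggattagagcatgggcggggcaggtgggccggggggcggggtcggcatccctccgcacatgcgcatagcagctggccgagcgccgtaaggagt
Trem2, chr17:48346151-48346400, plus strand: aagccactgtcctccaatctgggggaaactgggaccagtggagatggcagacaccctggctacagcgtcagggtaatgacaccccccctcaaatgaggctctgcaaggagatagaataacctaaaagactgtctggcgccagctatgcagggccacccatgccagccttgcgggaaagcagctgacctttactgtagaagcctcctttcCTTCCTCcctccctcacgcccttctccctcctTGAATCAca
The Spp1 window held GAGGAAG 113 bases before the start, and the second Spp1 promoter of the table (chr5:104435942-104436191, plus strand), not shown, held none of the motifs. The Trem2 window held TGAATCA 9 bases before the start and the reverse complement of GAGGAAG 41 bases before it, and these matches did not overlap. The Cd9 window held none of the 4 motifs searched. Of 32851 promoters of the same length, 10.6% held GAGGAAG and 6.75% held TGANTCA; the other motifs searched were CACGTG, held by 6.02%, and TGACNNNGC, held by 10.2%. A match is a string of letters and not a shown binding site.

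In microglia-like cells, 5 of the 9 measured members were higher 1 h after reperfusion than in naive brain and none was lower: Apoe, Tyrobp, Cst7, Fabp5 and Cd9. At 3 h the members above naive were again 5, with Lpl in place of Tyrobp. Fabp5 and Cd9 went on rising between 1 h and 3 h, while Trem2 and Tyrobp fell over the same interval. Spp1 had the largest fitted change of all members at 3 h, but also the largest standard error, and it did not pass the test. Itgax did not pass the test at either time.

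These calls come from UMIs summed per library over the microglia-like cells and fitted with edgeR's quasi-likelihood test, with genotype and time as terms and Benjamini-Hochberg adjustment over 12809 genes. Calling was common among all genes: 26.8% of genes passed at 1 h against naive (14% upward, 12.8% downward) and 47.6% at 3 h against naive (24.4% upward, 23.2% downward). The 5 of 9 members called upward stand beside those shares. The median log2 fold change of the 9 members was 0.57 at 1 h, against -0.01 over all genes, and 0.61 at 3 h, against -0.02. The naive libraries enter both comparisons, so the comparisons are not independent of each other. The 1 h calls depended on both naive libraries: a refit without either one rests on 1 naive library, and fewer members were then called. How far the calls over all genes moved in those refits is not reported here, so this is not read as a trait of the members.

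**Figure D1:**
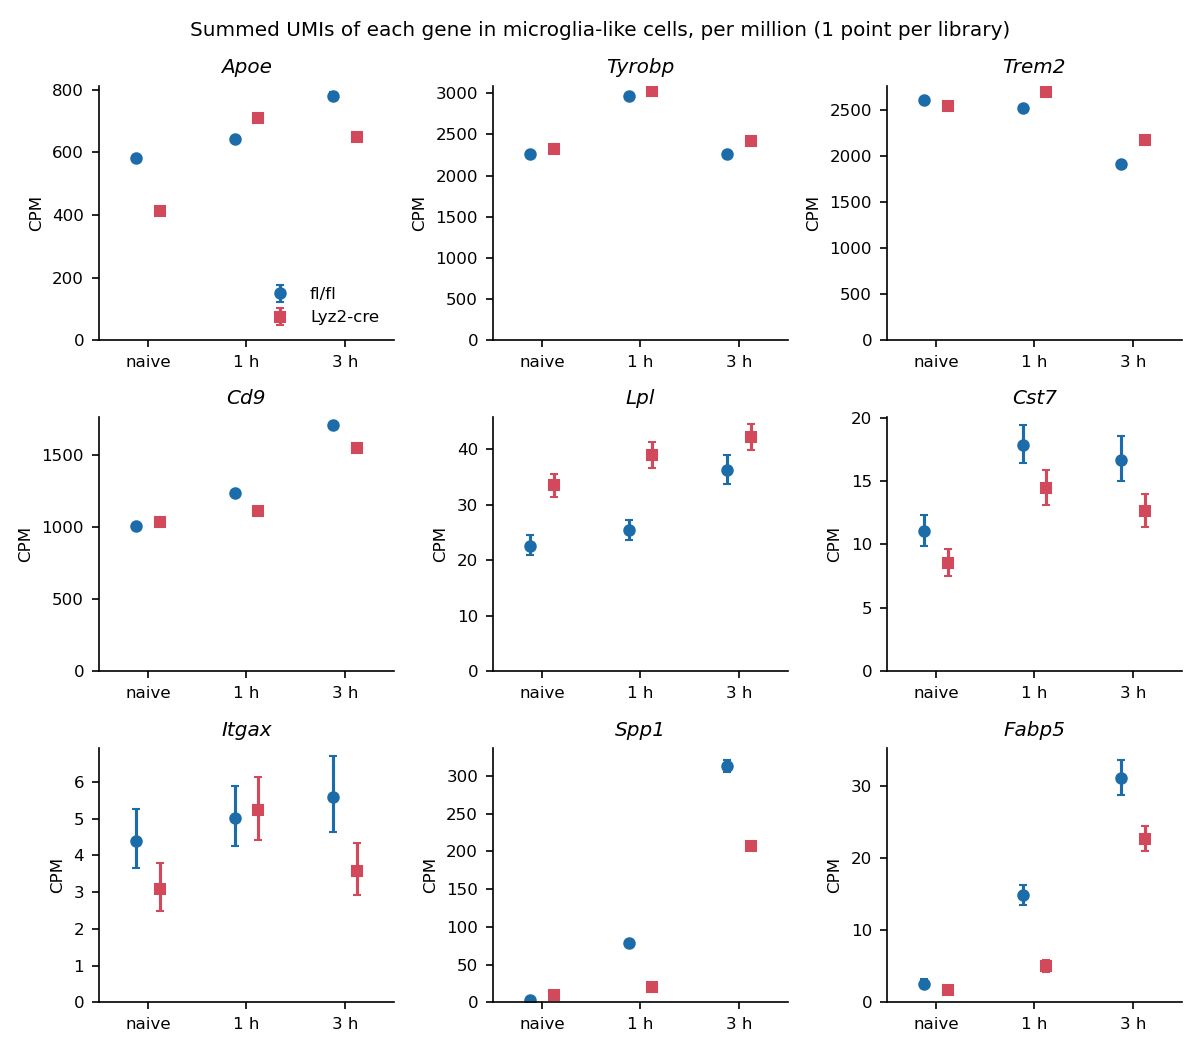
Level of each of the 9 measured members in microglia-like cells, in CPM on axes that start at 0, by time (naive, 1 h, 3 h) and genotype. Each point is 1 library of 3 pooled brains with its exact 95% Poisson interval for counting error, and Spp1, Fabp5 and Cd9 are highest in both 3 h libraries while Trem2 is lowest there.

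Among the ligand, receptor and adaptor, Apoe encodes apolipoprotein E, a lipid carrier that TREM2 binds (chromosome 7, 19696109 to 19699188, minus strand, 4 exons in its longest transcript). Its level in microglia-like cells was 581 CPM in fl/fl naive and 413 CPM in Lyz2-cre naive, 642 and 709.8 CPM after 1 h, and 780.1 and 649.5 CPM after 3 h, naming fl/fl first in each pair here and below. Every library after reperfusion was above both naive libraries, and the 1 h and 3 h libraries overlapped. The log2 fold change was 0.57 ± 0.16 (SE) at 1 h (edgeR adjusted p = 0.0466) and 0.61 ± 0.16 at 3 h (adjusted p = 0.0228). Without the Lyz2-cre naive library the Apoe change at 3 h was 0.37 with an edgeR adjusted p of 0.166, so 1 control library decided that call.

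Apoe RNA was unevenly spread over cells. After every cell was thinned to 2000 UMIs, a UMI of Apoe was seen in 21.6% and 16.4% of naive microglia-like cells, 29.5% and 32.2% at 1 h, and 30.3% and 29.3% at 3 h, so the naive libraries were the lowest. Free RNA can place UMIs in cells that do not make a gene, and in T-cell-like cells, thinned the same way, the Apoe share was between 1.46% and 5.88%. In B-cell-like cells it was higher, between 11.4% and 31.9%. The microglia-like share was above the T-cell-like share in each library but below the B-cell-like share in the Lyz2-cre 3 h library. The 1% of microglia-like cells with the most Apoe held 45.4% and 57.1% of its thinned UMIs in naive libraries and between 28.5% and 36.9% later.

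Trem2 encodes the receptor (chromosome 17, 48346401 to 48354147, plus strand, 5 exons). Its level was 2605 and 2542 CPM for naive brain, 2519 and 2699.8 CPM 1 h after reperfusion, and 1911 and 2177 CPM at 3 h. Both 3 h libraries lay below the other 4, while the 1 h and naive libraries overlapped. Against 1 h the 3 h level fell by 0.38 ± 0.10 on the log2 scale (edgeR adjusted p = 0.00951). Without the Lyz2-cre 1 h library the Trem2 change was -0.33 with an edgeR adjusted p of 0.0517, which ends the call. Against naive the change was -0.25 ± 0.10, with an edgeR adjusted p of 0.0518, and DESeq2 placed it just past the threshold at -0.24 with an adjusted p of 0.0470.

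Tyrobp encodes the adaptor that carries the TREM2 signal through its immunoreceptor tyrosine-based activation motif (chromosome 7, 30413760 to 30417585, plus strand, 5 exons). Its level was 2263 and 2323 CPM for the naive pair, 2961 and 3026 CPM in the 1 h pair, and 2259 and 2418 CPM in the 3 h pair. Both 1 h libraries lay above the other 4, and the naive and 3 h libraries overlapped. Tyrobp thus rose at 1 h by 0.49 ± 0.09 on the log2 scale (edgeR adjusted p = 0.00469) and fell from 1 h to 3 h by 0.38 ± 0.09 (adjusted p = 0.00692). The 3 h level differed from naive by 0.11 ± 0.09, with an adjusted p of 0.345. A UMI of Trem2 was seen in at least 97.4% of microglia-like cells of every library, and Tyrobp in at least 97.5%.

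Of the genes of lipid handling, Lpl encodes lipoprotein lipase, which releases fatty acids from lipoproteins (chromosome 8, 68880491 to 68907448, plus strand, 10 exons). Its level was 22.7 and 33.5 CPM without stroke, 25.4 and 39.0 CPM after 1 h, and 36.3 and 42.3 CPM after 3 h. Both 3 h libraries lay above both naive libraries, the 1 h libraries overlapped with both, and at each time the Lyz2-cre library was the higher. Lpl rose at 3 h by 0.58 ± 0.12 on the log2 scale (edgeR adjusted p = 0.00438), and at 1 h its change was 0.30 with an edgeR adjusted p of 0.101. Without the fl/fl naive library the Lpl change at 3 h was 0.48 with an edgeR adjusted p of 0.103.

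Fabp5 encodes a cytosolic fatty acid binding protein (chromosome 3, 10012548 to 10016607, plus strand, 4 exons). The mouse genome holds near-identical Fabp5 copies that could take or lend reads. The level in microglia-like cells was 2.61 and 1.74 CPM in naive mice, 14.9 and 5.02 CPM by 1 h, and 31.2 and 22.6 CPM by 3 h. The libraries of the 3 times did not overlap, and at each time the fl/fl library was the higher. Fabp5 rose by 2.21 ± 0.30 on the log2 scale at 1 h (edgeR adjusted p = 0.00496), by 3.74 ± 0.28 at 3 h (adjusted p = 0.000251), and by 1.54 ± 0.24 between 1 h and 3 h (adjusted p = 0.00362).

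Few cells had a Fabp5 UMI at this depth, which its low level alone can give. In thinned cells the share with a UMI was 0.351% and 0.286% for naive brain, 1.82% and 0.788% 1 h after reperfusion, and 3.37% and 2.61% at 3 h. In B-cell-like cells 2 of 100 had a Fabp5 UMI in the Lyz2-cre naive library and 4 of 289 in the Lyz2-cre 1 h library, and none did in the other libraries, where a count of 0 still allows between 2.17% and 5.26%. The naive and Lyz2-cre 1 h shares are thus within the background, and the fl/fl 1 h share is below its limit of 2.24%. At 3 h the microglia-like shares were above the limits in B-cell-like cells, 2.52% and 2.17%.

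Among the genes of lysosome, adhesion and secretion, Cst7 encodes cystatin F, an inhibitor of lysosomal cathepsins (chromosome 2, 150570415 to 150578944, plus strand, 4 exons). Its level was 11.1 and 8.51 CPM for the naive pair, 17.9 and 14.4 CPM in the 1 h pair, and 16.7 and 12.7 CPM in the 3 h pair. All 4 libraries after reperfusion were above both naive libraries, and the 1 h and 3 h libraries overlapped. Cst7 rose by 0.83 ± 0.11 on the log2 scale at 1 h (edgeR adjusted p = 0.00102) and by 0.66 ± 0.12 at 3 h (adjusted p = 0.00136). The 1 h call held whichever of the 6 libraries was left out, but in the cells with at most 1 UMI of monocyte, border macrophage and neutrophil markers, between 1454 and 2880 per library, the Cst7 change was 0.42 with an edgeR adjusted p of 0.143. That filter counted Csf3r and Stab1, which stood at 152 to 212 CPM and 148 to 263 CPM over all microglia-like cells. It thus also removed cells for these genes, and the part of other cell types in the lost call was not tested. The thinned share of Cst7 stayed between 1.38% and 2.46% of cells, and no B-cell-like cell had a UMI of it.

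Cd9 encodes a tetraspanin of the cell surface and of secreted vesicles (chromosome 6, 125460266 to 125494791, minus strand, 8 exons). Its level was 1007 and 1037 CPM without stroke, 1234 and 1112 CPM after 1 h, and 1705 and 1543 CPM after 3 h. The libraries of the 3 times did not overlap. Cd9 rose by 0.30 ± 0.09 on the log2 scale at 1 h (edgeR adjusted p = 0.0404), by 0.75 ± 0.09 at 3 h (adjusted p = 0.000238), and by 0.45 ± 0.09 from 1 h to 3 h (adjusted p = 0.0038). The 1 h call was lost without any 1 of the 4 libraries compared. Cd9 was widely expressed, with a UMI in between 81.3% and 85.7% of thinned cells.

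Itgax encodes CD11c, the alpha chain of a complement-binding integrin (chromosome 7, 128129547 to 128150657, plus strand, 30 exons). Its level was 4.40 and 3.09 CPM in naive mice, 5.01 and 5.23 CPM by 1 h, and 5.59 and 3.58 CPM by 3 h. The Lyz2-cre 3 h library lay between the naive libraries, so the groups overlapped at 3 h, and both 1 h libraries were above both naive ones. The log2 fold change was 0.58 ± 0.22 at 1 h (edgeR adjusted p = 0.0746) and 0.36 ± 0.22 at 3 h (adjusted p = 0.205). Fewer than 1% of thinned cells had a UMI of Itgax in any library, from 0.522% to 0.888%.

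Spp1 encodes osteopontin, a secreted protein that binds integrins and CD44 (chromosome 5, 104435118 to 104441050, plus strand, 6 exons). Its level was 3.29 and 9.63 CPM for naive brain, 79.3 and 20.8 CPM 1 h after reperfusion, and 313 and 207 CPM at 3 h. The libraries of the 3 times did not overlap, but a single cell held 57 of the 92 UMIs of the fl/fl naive library and 248 of the 293 of the Lyz2-cre naive library. Without the cell with the most Spp1, the same 6 levels were 1.25 and 1.48, 74.8 and 15.5, and 301 and 198 CPM. The log2 fold change was 2.80 ± 1.13 at 1 h (edgeR adjusted p = 0.236), 5.28 ± 1.15 at 3 h (adjusted p = 0.0704) and 2.48 ± 0.97 between them (adjusted p = 0.177).

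The Spp1 call depended on the tool and on 1 library. DESeq2 gave a Spp1 change of 2.87 at 1 h with an adjusted p of 0.0412, and of 5.30 at 3 h with an adjusted p of 5.83e-06. Without the Lyz2-cre naive library, edgeR gave a Spp1 change of 6.95 at 3 h with an adjusted p of 0.0384.

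**Figure D2:**
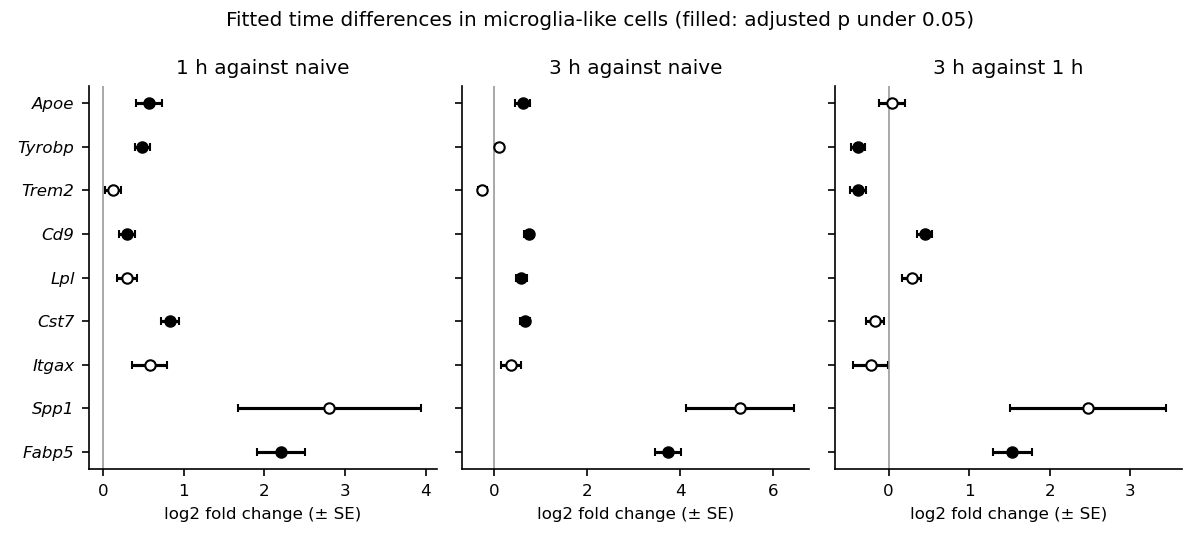
Log2 fold change of each member in microglia-like cells, with its standard error, for 1 h against naive, 3 h against naive and 3 h against 1 h (edgeR, 6 libraries). Filled points passed an adjusted p of 0.05. Trem2 and Tyrobp lie below 0 in the last comparison while Fabp5 and Cd9 lie above it, and Spp1 has the widest errors.

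From 1 h to 3 h, 2 members rose (Fabp5 and Cd9) and 2 fell (Trem2 and Tyrobp), when 47.4% of all genes tested passed the same threshold, 25.3% upward and 22.1% downward. The median change of the 9 members was 0.04, against 0.03 over all genes. The Apoe change was 0.04 ± 0.16 with an edgeR adjusted p of 0.864. Cst7 changed by -0.17 ± 0.11 (adjusted p = 0.237) and Lpl by 0.28 ± 0.12 (adjusted p = 0.0819), both short of the threshold.

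The share of cells with a UMI after thinning follows a member's level, so it limits detection and does not count the cells that make the RNA. After thinning, a UMI of Spp1 was seen in 8 of 5416 and 9 of 5594 microglia-like cells in the naive libraries, 106 of 6689 and 33 of 6853 at 1 h, and 267 of 4393 and 223 of 6702 at 3 h. As shares these are 0.148% and 0.161%, 1.58% and 0.482%, and 6.08% and 3.33%. In B-cell-like cells Spp1 had no UMI in 5 of the 6 libraries, which allows up to 1.04% to 5.26%, and was seen in 1.45% of cells in the Lyz2-cre 3 h library. The 3 h shares in microglia-like cells were above those values, and the naive and 1 h shares were within the limits, which are wide because B-cell-like cells were few. A share does not show how much a cell held. The thinned microglia-like cell with the most Spp1 had 23 and 67 UMIs in the naive pair and 57 and 44 in the 1 h pair. Lpl was seen in 2.20% and 4.76% of naive cells, 2.99% and 5.18% at 1 h, and 3.98% and 4.39% at 3 h. The Lpl share was highest in the Lyz2-cre 1 h library and lowest in the fl/fl naive one. The share of cells with none of Lpl, Cst7, Spp1 and Itgax was 95.6% and 93.5% in the naive pair, 93.3% and 92.2% in the 1 h pair, and 87.8% and 90.5% in the 3 h pair.

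**Figure D3:**
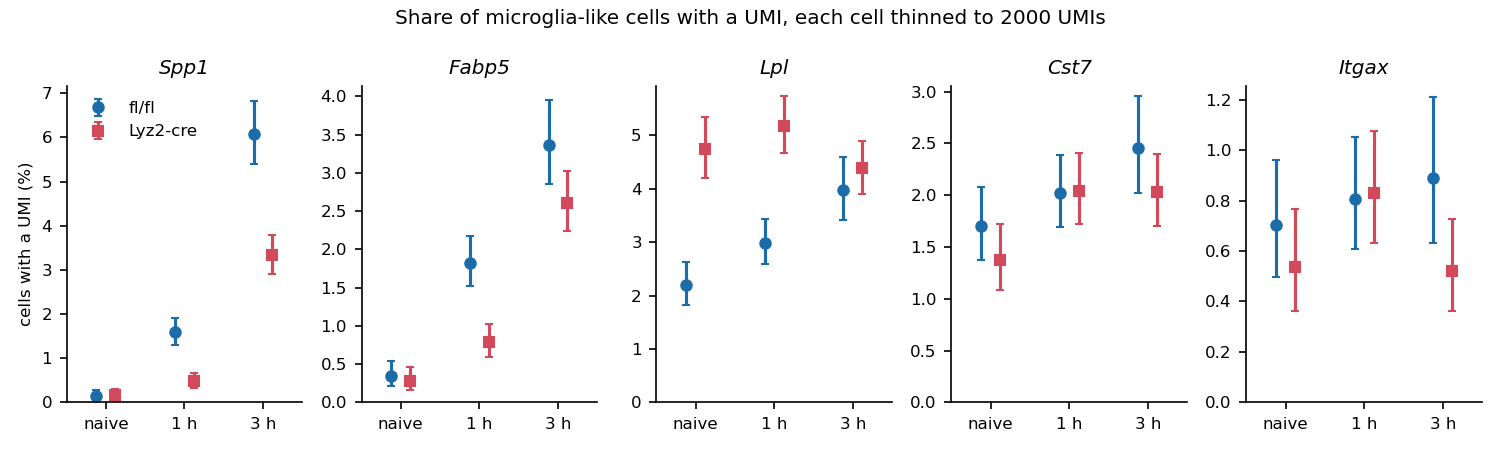
Share of microglia-like cells with at least 1 UMI of Spp1, Fabp5, Lpl, Cst7 and Itgax after thinning to 2000 UMIs per cell, in percent, by time and genotype. Each point is 1 library with its exact 95% Clopper-Pearson interval for counting error, and Spp1 reaches 6.08% and 3.33% at 3 h while Itgax stays below 1%.

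Late-stage members were seldom seen together in a cell at this depth. Of 4 late-stage members (Lpl, Cst7, Spp1 and Itgax), 3 or more were seen in 1 and 5 naive cells, 3 and 7 cells at 1 h, and 2 and 3 cells at 3 h. Lpl was seen more often where Spp1 was: at 3 h in 10.5% of the cells with Spp1 and 3.56% of those without in the fl/fl library, and in 11.7% and 4.14% in the Lyz2-cre library. At 1 h the same Lpl shares were 15.1% against 2.80% and 21.2% against 5.10%. Fabp5 was seen in 4.49% of cells with Spp1 and 3.30% of those without in the fl/fl 3 h library, and in 9.87% and 2.36% in the Lyz2-cre 3 h library. In the Lyz2-cre 1 h library none of 33 cells with Spp1 had a Fabp5 UMI. These are shares of cells of single libraries and carry no test over samples.

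Spp1 and Fabp5 had their highest levels in the same 2 of 11 microglia-like clusters. Cluster 6, led by Rcan1, Ccl12, Gpr84, Pmp22 and Il1a, had 608 CPM of Spp1, cluster 10, led by Gdf15, Hspb1, Hspa1a, Pmp22 and Ccl3, had 352 CPM, and no other cluster exceeded 18.4 CPM. Fabp5 stood at 52.5 and 39.3 CPM in these clusters and at 11.6 CPM or less elsewhere. Cd9 was 1962 and 2224 CPM there, against 928 to 1400 CPM elsewhere, and Trem2 was 1963 and 1563 CPM, below the 2231 to 2919 CPM of the other clusters. The cells of clusters 6 and 10 came to 86.2% and 87.2% from the 3 h libraries, so cluster and time cannot be told apart in these pooled values.

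Within cluster 6 the few cells of the 1 h libraries already had high Spp1. Its level was 1092 and 675 CPM in the 1 h pair, against 502 and 591 CPM in the 3 h pair, while the cluster held 5.25% and 1.24% of microglia-like cells at 1 h and 23.6% and 25.7% at 3 h. In cluster 10 the Spp1 level was 216 and 21.7 CPM in the 1 h pair, against 494 and 92.9 CPM in the 3 h pair, and both fl/fl libraries were the higher. A cluster of chaperone genes at 3 h (cluster 17, led by Hspa1a, Hspb1 and Hspa1b) had 15.3 CPM of Spp1 and 928 CPM of Cd9. Lpl and Apoe were arranged otherwise: Lpl was highest in clusters 6, 5 and 10 (84.5, 62.2 and 51.8 CPM), and Apoe in clusters 5 and 6 (1475 and 1008 CPM), where cluster 5, led by Ccl12 and Il1a, came to 77.8% from naive libraries.

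**Figure D4:**
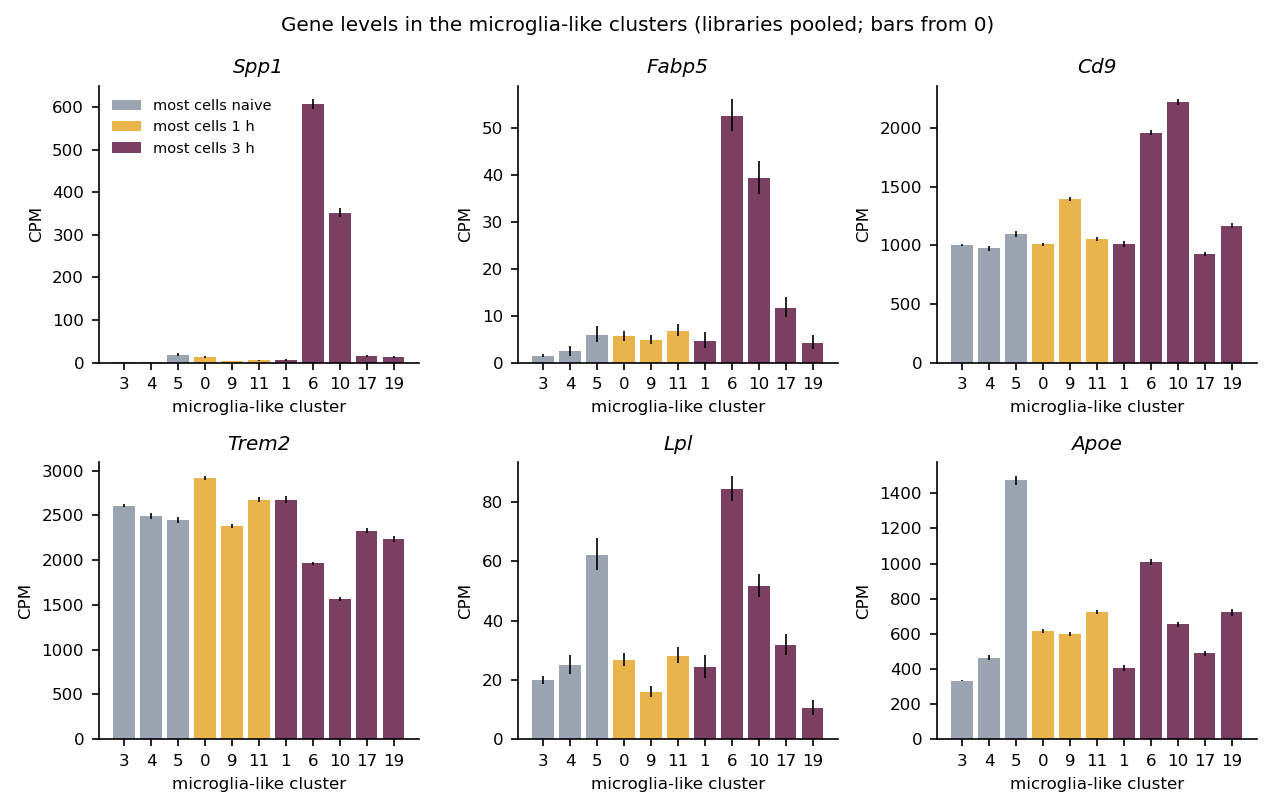
Pooled level of Spp1, Fabp5, Cd9, Trem2, Lpl and Apoe in each of the 11 microglia-like clusters, in CPM from 0, with exact 95% Poisson intervals and a colour for the time that gave most of a cluster's cells. The members were left out of the clustering, and clusters 6 and 10 stand above the others for Spp1, Fabp5 and Cd9 and below them for Trem2.

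A small group of cells held much of the naive Lpl. When the 41 programme genes were let into the clustering, 242 of the microglia-like cells moved to 3 clusters led by Lpl, Apoe, Cst7, Axl or Fam20c. Since the members helped to make these clusters, their levels are given as a description. The cells made up 0.954% and 0.770% of microglia-like cells in naive mice, 0.829% and 0.926% by 1 h, and 0.148% and 0.219% by 3 h. They held 32.8% and 20.7% of the Lpl UMIs of the naive pair, 25.0% and 26.5% after 1 h, and 0.532% and 2.42% after 3 h.

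Outside this group the Lpl level was 15.4 and 26.9 CPM without stroke, 19.3 and 29.1 CPM after 1 h, and 36.2 and 41.4 CPM after 3 h. The Apoe level outside it was 465 and 343 CPM, 582 and 621 CPM, and 779 and 631 CPM. Both levels were higher at 3 h than in naive brain in each genotype, with no test. Lpl and Apoe helped to choose the group, so taking it out lowers the naive levels more than the 3 h levels. It held 20.9% and 17.9% of the Apoe UMIs of the naive pair, and 0.334% and 3.15% at 3 h. The remaining cells are thus no separate evidence of a rise. One of the 3 clusters, 114 cells led by Apoe, Lpl and Folr2 and holding Mrc1 and Pf4 among its leading genes, had 12343 CPM of Apoe and was called border-associated macrophage-like by its markers in that clustering.

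None of the 9 members passed edgeR's threshold between genotypes in microglia-like cells, where 0.461% of all genes passed. At an unadjusted p under 0.05 there were 4: Lpl at 0.41 ± 0.10 (edgeR adjusted p = 0.183), Cst7 at -0.41 ± 0.09 (adjusted p = 0.127), Fabp5 at -0.94 ± 0.22 (adjusted p = 0.257) and Itgax at -0.40 ± 0.18 (adjusted p = 0.48), Lyz2-cre against fl/fl. DESeq2 called 1, Fabp5, at -0.95 with an adjusted p of 0.00185. The level of Fabp5 was lower in the Lyz2-cre library at each of the 3 times, and that of Lpl higher at each of them. With 1 library for each genotype at each time, a difference in time course between genotypes has no test. The Spp1 ratio of 1 h to naive, for instance, was 4.59 on the log2 scale in fl/fl and 1.11 in Lyz2-cre.

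The wider programme was read from lists of genes chosen with earlier results of these data known, and the members are left out of the counts and medians of the early-stage and late-stage lists. These counts stand beside the shares of all genes, 26.8% called at 1 h and 47.6% at 3 h, with medians of -0.01 and -0.02. Of the 8 other early-stage genes, 5 rose at 1 h and 5 at 3 h, and none fell, with medians of 0.42 and 0.46 on the log2 scale. These were led at 1 h by Ctsb, a lysosomal protease, at 0.86 ± 0.11, the ferritin chain Fth1 at 0.64 ± 0.11, the cholesterol carrier Npc2 at 0.54 ± 0.09 and the MHC class I light chain B2m at 0.51 ± 0.14. At 3 h Fth1 stood at 1.20 ± 0.11 and Ftl1 at 0.70 ± 0.11, both ferritin genes with processed copies that could share reads.

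Of the 24 other late-stage genes tested, 18 rose and 1 fell at 1 h, and 13 rose and 1 fell at 3 h, with medians of 0.49 and 0.58. Cd83 rose by 2.92 ± 0.11 at 1 h and 3.65 ± 0.11 at 3 h, and Csf1, a growth factor for microglia, by 2.52 ± 0.22 and 4.17 ± 0.23. Ch25h, which makes 25-hydroxycholesterol, rose by 6.22 ± 0.33 at 3 h from a very low base, 0.179 and 0.197 CPM in naive libraries to 17.4 and 10.5 CPM at 3 h. Lilrb4a, an inhibitory receptor, rose by 3.75 ± 0.21 at 3 h, with 1.57 and 0.756 CPM in naive mice, 1.32 and 0.727 CPM by 1 h, and 22.3 and 8.32 CPM by 3 h. Gpnmb stayed below 1 CPM in all libraries.

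The homeostatic genes took the opposite course between the times. Of the 16 listed, 12 are also the markers that named the microglia-like clusters, Cx3cr1, P2ry12 and Fcrls among them. Cells thus entered the class partly by these genes, and the part of this in the counts was not tested. Of all 16, 9 rose and 3 fell at 1 h, and at 3 h none rose and 13 fell, with medians of 0.36 and -0.48. Cx3cr1, the fractalkine receptor, was lower at both times, by -0.56 ± 0.09 at 1 h and -0.77 ± 0.09 at 3 h. P2ry12, a purine receptor, fell by 0.93 ± 0.10 at 3 h, and Fcrls was higher at 1 h by 0.73 ± 0.10. From 1 h to 3 h, 14 of the 16 fell and none rose.

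For the signalling path below TREM2 and TYROBP, 4 of 19 genes tested rose and 3 fell at 1 h, and 6 rose and 4 fell at 3 h, with medians of 0.04 and 0.12. That is 7 and 10 of the 19, not far from the shares of all genes. At 3 h the adaptor Pik3ap1 stood at 0.88 ± 0.11, Ms4a6d at 0.84 ± 0.08, Card9 at -0.87 ± 0.11 and Lat2 at -0.69 ± 0.10. Of 27 genes of lipid uptake, storage and efflux, 8 rose and 3 fell at 1 h, and 15 rose and 3 fell at 3 h. Insig1 rose by 0.80 ± 0.12 at 1 h, and the lipid droplet gene Plin2 by 1.77 ± 0.18 and the fatty acid binding protein gene Fabp3 by 2.67 ± 0.56 at 3 h.

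Of 24 transcription factor genes tied to the programme, 5 rose and 7 fell at 1 h, and 11 rose and 8 fell at 3 h. Cebpb rose by 1.92 ± 0.18 and 2.57 ± 0.18, and Bhlhe40 by 2.20 ± 0.42 and 3.66 ± 0.38. Jun fell by 1.60 ± 0.12 at 1 h and 1.33 ± 0.12 at 3 h, and Runx1 rose by 1.66 ± 0.10 at 3 h. Of 18 integrin and tetraspanin genes near Itgax and Cd9 in function, 7 rose and none fell at 1 h, and 6 rose and 6 fell at 3 h. CD44, a receptor of osteopontin, had its gene up by 2.41 ± 0.32 at 3 h, and the tetraspanin gene Cd63 was up by 0.50 ± 0.12 and 1.13 ± 0.13. Of 10 cystatin and cathepsin genes, 7 rose at 1 h, and 3 rose and 1 fell at 3 h, among them Cstb at 1.73 ± 0.37.

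The counts of these lists moved when a library was left out, most at 1 h, and here they include the members (7 early-stage and 22 late-stage genes called at 1 h). Such a refit leaves 1 library at the time concerned. The shares of all genes called in these refits are not reported here. The counts below thus do not show whether the lists moved more than other genes did. Without the fl/fl naive library, 1 early-stage and 8 late-stage genes passed at 1 h, without the Lyz2-cre naive library 1 and 6, and without the Lyz2-cre 1 h library 4 and 13. With the fl/fl and then the Lyz2-cre naive library left out, the homeostatic count fell to 0 and 2, the signalling count to 1 and 2, the lipid count to 2 and 1, the integrin and tetraspanin count to 1 and 0, and the cystatin and cathepsin count to 1 and 1. The transcription factor count fell from 12 to 7 without the fl/fl naive library. With each 1 h library left out, fl/fl and then Lyz2-cre, the signalling count was 1 and 3, the lipid count 4 and 4, and the integrin and tetraspanin count 2 and 3, and the homeostatic count was 7 without the Lyz2-cre one. Without either 3 h library the lipid count at 1 h was 17 and the integrin and tetraspanin count 11. At 3 h the late-stage count alone stayed within 1.5 times of its value. Without the fl/fl naive library the others at 3 h were 3 early-stage, 4 signalling, 9 lipid, 9 transcription factor, 7 homeostatic, 5 integrin and tetraspanin, and 1 cystatin or cathepsin genes. Without the Lyz2-cre naive library 4 of these also moved by over 1.5 times, to 3 early-stage, 11 transcription factor, 7 integrin and tetraspanin, and 2 cystatin or cathepsin genes. Between genotypes, 1 early-stage gene was lower in Lyz2-cre libraries, Lyz2 at -8.64 ± 0.14, the gene that holds the Cre insertion. Of 31 late-stage genes tested, 4 were lower in Lyz2-cre: Lilrb4a at -1.30 ± 0.18, Ccl3 at -0.77 ± 0.10, Ccl4 at -0.75 ± 0.10 and Cd83 at -0.49 ± 0.08. Over all genes, 0.461% of 12809 passed between genotypes, and that count moved widely under the alternatives given below.

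In monocyte-like cells more members fell than rose, while the make-up of the class shifted between 2 clusters, described after the values. Of 8 members tested there, Apoe and Lpl fell at 1 h, when 1.79% of 8955 genes passed and 0.737% fell. At 3 h 5 members fell (Apoe, Trem2, Lpl, Itgax and Cd9) and 2 rose (Spp1 and Fabp5), when 27.3% of genes passed, 13% downward and 14.3% upward. Lpl stood at 127 and 91.9 CPM for naive brain, 16.9 and 22.0 CPM 1 h after reperfusion, and 9.42 and 8.46 CPM at 3 h. The 3 times did not overlap, and Lpl fell by 2.32 ± 0.23 on the log2 scale at 1 h (edgeR adjusted p = 0.00322) and 3.38 ± 0.21 at 3 h (adjusted p = 3.92e-06). Apoe stood at 2617 and 2685 CPM, 1882 and 1193 CPM, and 1582 and 1475 CPM, and fell by 0.75 ± 0.15 at 1 h and 0.60 ± 0.14 at 3 h.

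Fabp5 in monocyte-like cells was 72.7 and 93.5 CPM for the naive pair, 109 and 111 CPM in the 1 h pair, and 196 and 209.8 CPM in the 3 h pair, a rise of 1.47 ± 0.15 at 3 h (edgeR adjusted p = 6.19e-05). Spp1 was 2.51 and 0.553 CPM, 2.67 and 2.5 CPM, and 124 and 26.7 CPM, and 1 cell of the fl/fl 3 h library held 321 of its 631 Spp1 UMIs. Both 3 h libraries were above the other 4 for Spp1 and Fabp5. The Spp1 naive values rest on 2 and 1 UMIs. Fewer cells of a type and less RNA per cell cannot be told apart in these sums: the cluster led by Saa3, Vcan, Fn1, Plac8 and F13a1 (cluster 15) made up 41.3% and 29.96% of the class in naive mice, 46.9% and 45.8% by 1 h, and 78.1% and 81.7% by 3 h, and a cluster led by Ace, Ear2 and Treml4 (cluster 20) the rest.

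Within these clusters some of the class-level falls were absent. Lpl in cluster 15 was 202 and 168 CPM without stroke, 22.8 and 26.8 CPM after 1 h, and 3.94 and 9.3 CPM after 3 h. In cluster 20 it was 42.5 and 34.1, 7.09 and 13.7, and 39.7 and 2.38 CPM, so the fl/fl library was back near its naive level at 3 h. Trem2 was lower at 3 h than in naive mice in both clusters and both genotypes, at 96.8 and 99.5 CPM against 251 and 190 CPM in cluster 15, and 70.5 and 80.9 CPM against 204 and 131 CPM in cluster 20. Cd9 did not show this: at 3 h it was 61.4 and 41.4 CPM against 59.3 and 55.1 CPM in cluster 15, and 396 and 521 CPM against 372 and 334 CPM in cluster 20. Itgax in cluster 20 was 94.9 and 90.4 CPM at 3 h against 117 and 75.0 CPM, one genotype lower and the other higher, and in cluster 15 it stayed below 9 CPM. Apoe in cluster 15 went from 2298 to 1470 CPM in fl/fl and from 1343 to 1377 CPM in Lyz2-cre, and in cluster 20 it was lower at 3 h in both genotypes. Fabp5 was higher at 3 h in both clusters and both genotypes. These within-cluster values carry no test. Free RNA of microglia can also place UMIs in these cells. Of the 16 homeostatic microglial genes, none rose and 15 fell in monocyte-like cells at 3 h against naive, with a median of -1.91 on the log2 scale. The part of free RNA in the Trem2 fall was not tested.

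**Figure D5:**
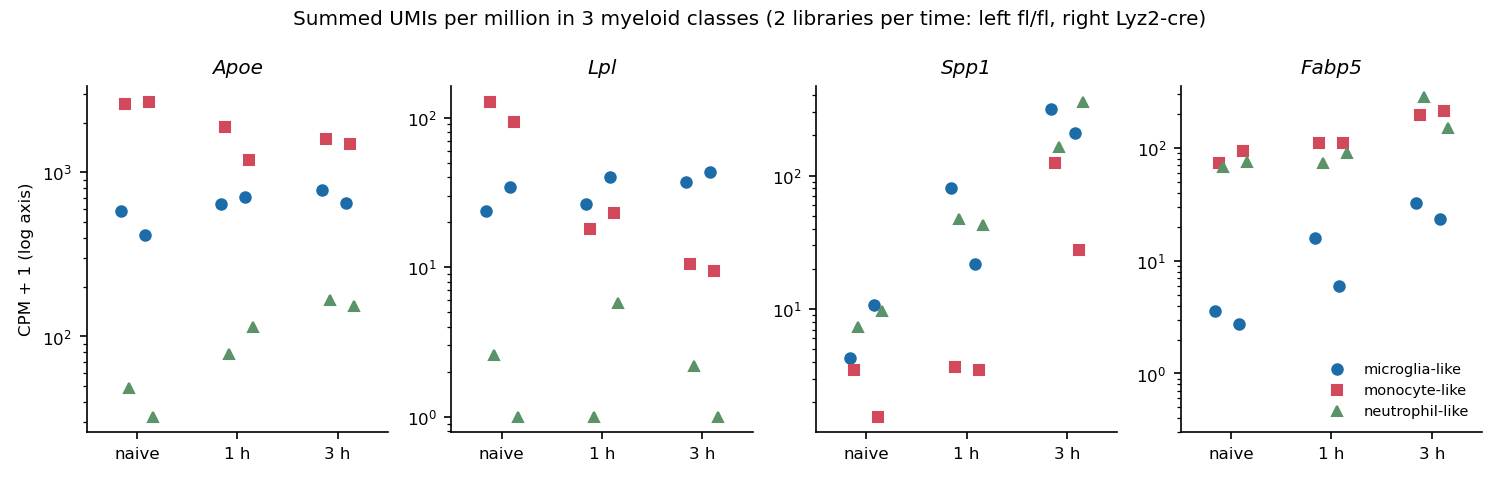
Level of Apoe, Lpl, Spp1 and Fabp5 in microglia-like, monocyte-like and neutrophil-like cells by time, as CPM + 1 on a log axis, with 1 point for each library. Lpl is higher at 3 h than in naive brain in microglia-like cells and lower in monocyte-like cells, and Spp1 is highest at 3 h in all 3 classes.

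In neutrophil-like cells Spp1 was the member that changed by 1 h. It stood at 6.35 and 8.65 CPM in naive mice, 46.5 and 41.2 CPM by 1 h, and 162 and 357 CPM by 3 h, without overlap between times. It was the 1 member of 7 tested that rose at 1 h, by 2.66 ± 0.37 on the log2 scale (edgeR adjusted p = 0.00321), when 1.12% of 7702 genes passed, 1.09% upward. That call was lost without either naive library, and 1 cell of the Lyz2-cre 1 h library held 103 of its 183 Spp1 UMIs. At 3 h, 6 members rose and Trem2 fell, when 29.8% of genes passed, 18.1% upward and 11.8% downward: Spp1 by 5.32 ± 0.35, Apoe by 2.38 ± 0.33, Itgax by 2.04 ± 0.63, Fabp5 by 1.87 ± 0.39, Cd9 by 1.10 ± 0.23 and Tyrobp by 0.83 ± 0.26.

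The make-up of this class shifted as well: cluster 12 held 47.3% and 58.6% of neutrophil-like cells in naive libraries and 3.03% and 3.31% at 3 h, and cluster 14 the rest. Within cluster 14, Spp1 was 0 and 18.2 CPM for naive brain, 68.0 and 108 CPM 1 h after reperfusion, and 173 and 380 CPM at 3 h, so the order of the times was the same there. Apoe within cluster 14 was 101 and 93.8 CPM, 113 and 207 CPM, and 181 and 167 CPM, a smaller difference than over the class. Cd9 was also higher at 3 h in this cluster, at 1055 and 1328 CPM against 772 and 644 CPM. Tyrobp in cluster 14 went the other way from the class, at 6527 and 6519 CPM at 3 h against 7662 and 8174 CPM in naive mice. In cluster 12, with 32 and 33 cells at 3 h, Tyrobp was 2578 and 2756 CPM then against 3188 and 2819 CPM. The Lyz2-cre counting intervals overlapped there. Fabp5 in cluster 14 was 305 and 161 CPM at 3 h against 130 and 182 CPM, and Itgax 12.95 and 33.6 CPM against 33.6 and 15.1 CPM, so for each of them one genotype was higher and the other lower. These values carry no test, and the naive Itgax values rest on 7 and 5 UMIs. Of the 16 homeostatic microglial genes, 2 rose and 8 fell in neutrophil-like cells at 3 h against naive, with a median of -1.39. The naive Apoe levels of this class rest on 30 and 51 UMIs. The part of free RNA in its Trem2 fall and its Apoe rise was not tested.

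The class differences themselves were tested with limma on the difference of log2(CPM + 1) between classes within each library. At 3 h against naive the microglia-like change exceeded the monocyte-like change by 3.94 ± 0.24 for Lpl (adjusted p = 0.0012), when 15% of 8755 genes passed. Fabp5, Itgax, Cd9 and Apoe also differed in this direction. At 1 h Lpl alone of the members passed, when 0.103% of genes did, and from 1 h to 3 h Lpl and Cd9 passed, when 3.97% did. Against neutrophil-like cells only Apoe passed at 3 h, when 16.9% of 7449 genes did. The difference for Spp1 was short of the threshold, at 0.59 ± 0.95 against monocyte-like cells (limma adjusted p = 0.707) and 0.40 ± 0.61 against neutrophil-like cells (adjusted p = 0.658).

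Across classes the members had different homes. Border-associated macrophage-like cells held the most Apoe, 14821 to 26748 CPM, against 413 to 780.1 CPM in microglia-like cells. Trem2 was highest in microglia-like cells, with 607 to 1604 CPM in border-associated macrophage-like cells. Cst7 was higher in NK-cell-like cells, at 95.4 to 229.7 CPM, than in microglia-like cells in every library. Itgax had 56.0 to 148 CPM in NK-cell-like and 67.0 to 108 CPM in conventional dendritic cell-like cells. The gene of the most similar pattern, by Pearson r of log2(CPM + 1) over 48 points (6 libraries by 8 classes, which share libraries and depth), was Fcer1g for Tyrobp (r = 0.954), Arap3 for Cd9 (0.891), Lipa for Lpl (0.885) and Ikzf2 for Cst7 (0.879). It was Sulf2 for Itgax (0.854), Blvrb for Apoe (0.842), Ifitm2 for Fabp5 (0.831) and Rab20 for Spp1 (0.807), among 8118 genes.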

How the data were processed

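The measurements were 10x Genomics 3′ v3 single-cell RNA counts of sorted CD45+ brain cells in 6 libraries, 1 for each genotype and time. The deposited values are raw UMI counts for each gene and cell, made by the authors with Cell Ranger 3.0.2 on mm10, per the submitters' processing notes. All samples were grouped by genotype and time from their labels. The labels tie each library to 3 pooled brains and name no second pool, so the spread between pools of the same group could not be measured. The 2 residual degrees of freedom in each fit mix that spread with any difference in time course between genotypes. The edgeR fits also borrowed from other genes, with a median prior of 7.78 to 10.2 degrees of freedom.

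From these counts, barcodes under 300 genes or over 10% mitochondrial UMIs were dropped, and 3557 of 51005 barcodes were removed as doublets by Scrublet scores, ranked at 0.8% per 1000 barcodes because its automatic threshold marked 433. Library pairs shared 12 to 30 barcodes. Clustering used scanpy 1.11.5 with the igraph form of Leiden at resolution 1. It took 2000 variable genes without 41 programme genes and 30 principal components, and gave 32 clusters. Clusters were named "-like" from marker lists. After the clusters were seen, the rule on leading genes was relaxed for the microglia clusters, 1 of which was led by Slc1a3, and 1 mixed cluster of macrophages and dendritic cells was split again. Classes are thus rebuilt here and may differ from the study's own.

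UMIs were summed for each library and class and fitted with edgeR 4.0.16 (quasi-likelihood, TMM factors, low-count filter, genotype and time as terms), with Benjamini-Hochberg adjustment over all genes tested and a threshold of 0.05. Class differences used limma 3.58.1 on log2(CPM + 1). Alternatives were DESeq2 1.42.0, other scalings, no filter, 1 library left out, only the tested term, stricter cells, no doublet removal, clustering with the programme genes and marker-clean cells. Marker-clean cells had at most 1 UMI of monocyte, border macrophage and neutrophil markers. Those markers include Csf3r and Stab1, which had counts in the microglia-like class of every library. The fits were tested on simulated data. Classes needed 20 cells in each library. Intervals are exact, at 95%, for counting error only. Promoters and motifs came from RefSeq on GRCm38.p6, and gene positions from the annotation of build 38.

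All 9 measured members are named; from each list of other genes, up to 4 of the largest changes past the threshold are named for each comparison of times, with their values at the other times, and genes beyond these only where the count was 5 or fewer. For each member but Trem2, 1 gene of like pattern is named. Some genes that the naming rule gives are not reported here. The members and lists were chosen with earlier results of these data known.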

Additional observations from a re-analysis of the deposited data

Results flagged for a closer look

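The change with time differed between classes for several members, by limma on the difference of log2(CPM + 1) within each library (6 libraries, adjusted over all genes tested in both classes). Against naive, Lpl differed most: its change in microglia-like cells minus that in monocyte-like cells was 2.61 ± 0.24 at 1 h against naive (adjusted p = 0.0458, when 0.103% of 8755 genes passed), 3.94 ± 0.24 at 3 h against naive (adjusted p = 0.0012) and 1.34 ± 0.24 at 3 h against 1 h (adjusted p = 0.0428, when 3.97% passed). At 3 h against naive the same difference was 1.84 ± 0.25 for Fabp5 (limma adjusted p = 0.00993), 1.71 ± 0.17 for Itgax (adjusted p = 0.00437), 1.65 ± 0.26 for Cd9 (adjusted p = 0.0147) and 1.33 ± 0.32 for Apoe (adjusted p = 0.0419). Cd9 also differed at 3 h against 1 h, by 1.41 ± 0.26 (limma adjusted p = 0.0443).

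Against neutrophil-like cells, the Apoe change at 3 h was smaller in microglia-like cells, by -1.48 ± 0.41 (limma adjusted p = 0.0476, when 16.9% of 7449 genes passed). The part of the shifting cluster make-up of the monocyte-like and neutrophil-like classes, and that of free RNA, in these differences was not tested.

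For 2 members in microglia-like cells the genotypes moved opposite ways with counting intervals (95%) that were apart in both genotypes. With 1 library for each genotype and time the difference was not tested. Apoe from 1 h to 3 h was 0.28 higher on the log2 scale in fl/fl and -0.13 in Lyz2-cre, a difference of -0.41. Trem2 from naive to 1 h was -0.05 in fl/fl and 0.09 in Lyz2-cre, a difference of 0.14. Of the other members, Itgax from 1 h to 3 h (0.16 in fl/fl and -0.55 in Lyz2-cre) and Tyrobp from naive to 3 h (-0.00217 and 0.06) also had opposite signs, but with intervals that overlapped in fl/fl.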

How the results depend on the processing

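Each comparison was refitted under the alternatives. In microglia-like cells at 1 h against naive, the count of members called was 5, but 2 with only the term tested, 3 in marker-clean cells and 1 to 7 with 1 library left out. Between genotypes it was 0, but 1 with library totals alone (Lpl), 1 with DESeq2 (Fabp5), 2 without the low-count filter, and 0 to 2 with 1 library left out. At 3 h against naive it was 4 to 7, and at 3 h against 1 h 3 to 5, with 1 library left out. In monocyte-like cells at 1 h the count was 2, but 1 with only the term tested and 1 to 2 with 1 library left out. In neutrophil-like cells at 1 h it was 1, but 2 with DESeq2, 2 without the filter and 0 to 2 with 1 library left out, and at 3 h 7, but 3 to 7 with 1 library left out. The cause of these moves was not tested.

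The Apoe change in microglia-like cells from 1 h to 3 h turned to -0.000537 without the filter, -0.26 without the fl/fl 1 h library and -0.05 without the fl/fl 3 h library, and reached 0.35 without the Lyz2-cre 1 h library. The Tyrobp change in monocyte-like cells at 3 h turned to -0.042 with library totals. No paired analysis was possible because the labels give no replicate numbers shared between groups.

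Among all genes, the counts called moved by over 1.5 times: in monocyte-like cells at 1 h from 160 to 608 without the filter and 299 with only the term tested, at 3 h from 2448 to 1278 with DESeq2. In neutrophil-like cells they moved at 1 h from 86 to 34 with library totals and 212 without the filter, and at 3 h from 2298 to 1390 with DESeq2. Between genotypes in microglia-like cells they moved from 59 to 127 with DESeq2, 273 without the filter and 1 with only the term tested. Library totals shifted the median of all genes by -0.12 in microglia-like and neutrophil-like cells at 1 h, -0.22 at 3 h in monocyte-like cells and -0.35 at 3 h in neutrophil-like cells. Depth limits low members: in microglia-like cells Itgax, and Spp1 and Fabp5 in naive mice, were under 10 CPM.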
